A study of Arabidopsis thaliana with 6 samples.

Results

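*ONSEN* is a family of Copia-type retrotransposons, and the tracks analysed here name 8 reference copies of it. The subject is the 5 copies *AT1G11265*, *AT1G48710*, *AT1G58140*, *AT3G61330* and *AT5G13205*, which were chosen by how seldom lines of the tracks name them without another copy. The measured name lists thus made the choice, and counts of names are descriptions with no test. Lines naming at least 1 of the 5 copies numbered 105 in library 1 (11.7% of its 896 lines) and 362 in library 2 (23.4% of 1544).

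Of the 6 genomic DNA samples listed, 2 entered the analysis (library 1 and library 2). The remaining 4 were not used here. Both libraries came from seedlings of the *nrpd1-3* mutant in the Col-0 ecotype, which lacks a functional PolIV, and their title refers to an ABA-tolerant *ONSEN* line 2. The labels conflict over the parent, since a sample attribute describes it as non-stressed whereas the treatment protocol has it at 37 °C for 24 h. They also conflict over age, with 1 week in an attribute and a longer growth period at 21 °C in the protocol, and they do not say whether plants were pooled. No wild type or unstressed control was used here, each library is a single sample, and the libraries were therefore described side by side and not compared as conditions. A track line consists of a 50-bp place on a chromosome, a strand and the names of 1 or more copies. The read depth is unknown, and what the strand refers to and how the names were assigned are not given in the sources used here.

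An LTR retrotransposon is transcribed from 1 of its flanking long terminal repeats (LTRs), and the RNA is copied into DNA that can enter the genome at a new place. Heat switches *ONSEN* on through heat shock elements in the LTR, which are bound by heat shock transcription factors. In plants with PolIV, small interfering RNAs guide DNA methylation to such elements. Since the copies of such a family share most of their sequence, a short read can match several of them equally well.

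All 5 copies were found as complete elements in the TAIR10.1 assembly, where each is annotated as a pseudogene, and their ends were located from the paired LTRs. Each of the 5 elements overlaps an annotated gene other than the copy itself. *AT1G11265* lies at chr1:3780765-3785720 on the plus strand and overlaps the gene *AT1G11270* and another gene. *AT1G48710* lies at chr1:18013162-18018117 on the plus strand. Both span 4956 bp with LTRs of 440 bp, which are 100% identical within *AT1G11265* and 99.32% identical, with 3 mismatches, within *AT1G48710*.

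*AT1G58140* lies at chr1:21524995-21529850 on the minus strand and is the shortest of the 5, with 4856 bp. Relative to *AT1G11265* it lacks 96 bp of the internal part, positions 2878 to 2973 from the 5′ end, and 4 bp of the 5′ LTR. Its LTRs, of 436 and 440 bp, are 97.05% identical and thus differ the most among the 5. *AT3G61330* lies at chr3:22695566-22700521 on the minus strand and spans 4956 bp, and its LTRs of 440 bp are 100% identical to each other and to those of *AT1G11265*. *AT5G13205* lies at chr5:4208083-4213084 on the minus strand and is the longest, with 5002 bp, because each of its LTRs has 463 bp.

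The 5 elements were 99.16% to 99.9% identical to each other, gaps aside. The closest pair was *AT1G11265* and *AT3G61330*, with 5 substitutions over 4956 bp. Counted from 1 at the 5′ end of the element, with the base of *AT1G11265* first, these are T482C, C584T, T1093C, A1389C and G3758A. None lies in an LTR.

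The LTR of *AT5G13205* carries a tandem duplication of 22 bp after position 173 and 1 more base after position 341. The duplicated stretch is shown, in capitals, beside the same stretch of *AT1G11265*, because it sets the LTRs of this copy apart in length.
*AT5G13205*, chr5:4212850-4212951, minus strand: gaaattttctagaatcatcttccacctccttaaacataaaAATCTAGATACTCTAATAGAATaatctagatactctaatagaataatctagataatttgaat
*AT1G11265*, chr1:3780898-3780977, plus strand: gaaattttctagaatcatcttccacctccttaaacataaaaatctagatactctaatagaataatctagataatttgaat

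Both LTRs of each copy were searched over their whole length for the motif TTCNNGAA, a palindrome that reads the same on both strands. The motif occurred 2 times in both LTRs of *AT1G11265*, *AT1G48710*, *AT3G61330* and *AT5G13205*. In *AT1G58140* it occurred 2 times in the 3′ LTR and 1 time in the 5′ LTR. Of 27443 regions of 440 bp upstream of protein-coding genes, 13.65% held the motif and 1.13% held it at least 2 times. A match is a description of letters and not evidence of binding. The 5′ LTR stretches are shown with the matches in capitals.
*AT1G11265*, chr1:3780873-3780931, plus strand: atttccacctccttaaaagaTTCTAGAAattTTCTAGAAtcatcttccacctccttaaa
*AT1G58140*, chr1:21529688-21529746, minus strand: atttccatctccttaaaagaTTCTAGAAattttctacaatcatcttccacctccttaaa

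The next sequences show how much, or how little, separates the copies over 50 bp, the length of the longer read. Each is a 50-bp stretch of the reference that is held by exactly the copies given before it, taken from the middle of the longest such run. Capitals mark the bases that differ from the nearest element outside that set, and in most of them a single base decides which copies share the stretch.
All 8 copies, *AT1G11265*, chr1:3784670-3784719, plus strand: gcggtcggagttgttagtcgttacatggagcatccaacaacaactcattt
All but *AT3G61330*, *AT1G11265*, chr1:3784498-3784547, plus strand: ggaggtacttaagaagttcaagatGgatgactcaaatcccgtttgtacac
The 5 copies and no other, *AT1G11265*, chr1:3785132-3785181, plus strand: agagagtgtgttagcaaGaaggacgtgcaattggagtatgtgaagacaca
All but *AT1G11265*, *AT1G58140* and *AT3G61330*, *AT1G48710*, chr1:18016122-18016171, plus strand: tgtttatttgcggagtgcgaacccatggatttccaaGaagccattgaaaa
*AT1G11265* and *AT3G61330*, *AT1G11265*, chr1:3785184-3785233, plus strand: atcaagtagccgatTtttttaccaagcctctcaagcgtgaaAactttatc
*AT1G11265* and *AT1G58140*, *AT1G11265*, chr1:3781222-3781271, plus strand: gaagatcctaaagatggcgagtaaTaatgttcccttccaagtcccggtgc
*AT1G58140* and *AT3G59720*, *AT1G58140*, chr1:21527037-21527086, minus strand: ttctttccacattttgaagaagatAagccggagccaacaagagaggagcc
*AT1G48710* alone, chr1:18015200-18015249, plus strand: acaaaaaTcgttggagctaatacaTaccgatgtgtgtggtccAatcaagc
*AT3G61330* alone, chr3:22699913-22699962, minus strand: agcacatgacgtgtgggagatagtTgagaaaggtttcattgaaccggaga
*AT5G13205* alone, chr5:4211931-4211980, minus strand: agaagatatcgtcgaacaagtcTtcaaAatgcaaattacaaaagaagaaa

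Across the whole of each element, 50-bp windows were counted by how many of the 8 elements hold them exactly. *AT1G11265* had 0 windows of its own among 4907, so every 50-bp stretch of it also lies in another copy. *AT3G61330* had 200 of 4907 (4.08%), which fell into 4 runs. *AT1G58140* had 568 of 4807 (11.8%), *AT5G13205* had 629 of 4953 (12.7%) and *AT1G48710* had 708 of 4907 (14.4%). The 3 copies not chosen had larger shares, with 17.4% in *AT3G59720*, 31.8% in *AT1G21945* and 50.0% in *AT3G32415*. Which read of a pair gave the names is not given in the sources used here. With windows of 35 bp the counts were 513 for *AT1G48710*, 434 for *AT5G13205*, 428 for *AT1G58140*, 140 for *AT3G61330* and 0 for *AT1G11265*.

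The windows particular to 1 copy lay in different places of the element. Of the 568 in *AT1G58140*, 399 lay within an LTR. Of the 629 in *AT5G13205*, 174 did, and of the 708 in *AT1G48710*, 168 did. In *AT3G61330* it was 0 of 200, and all 200 lay in the part annotated as the gene. Of the 568 windows of *AT1G58140*, 41 also had an exact match on the chromosomes outside the 8 elements, against 0 in the others of the 5 copies.

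**Figure D1:**
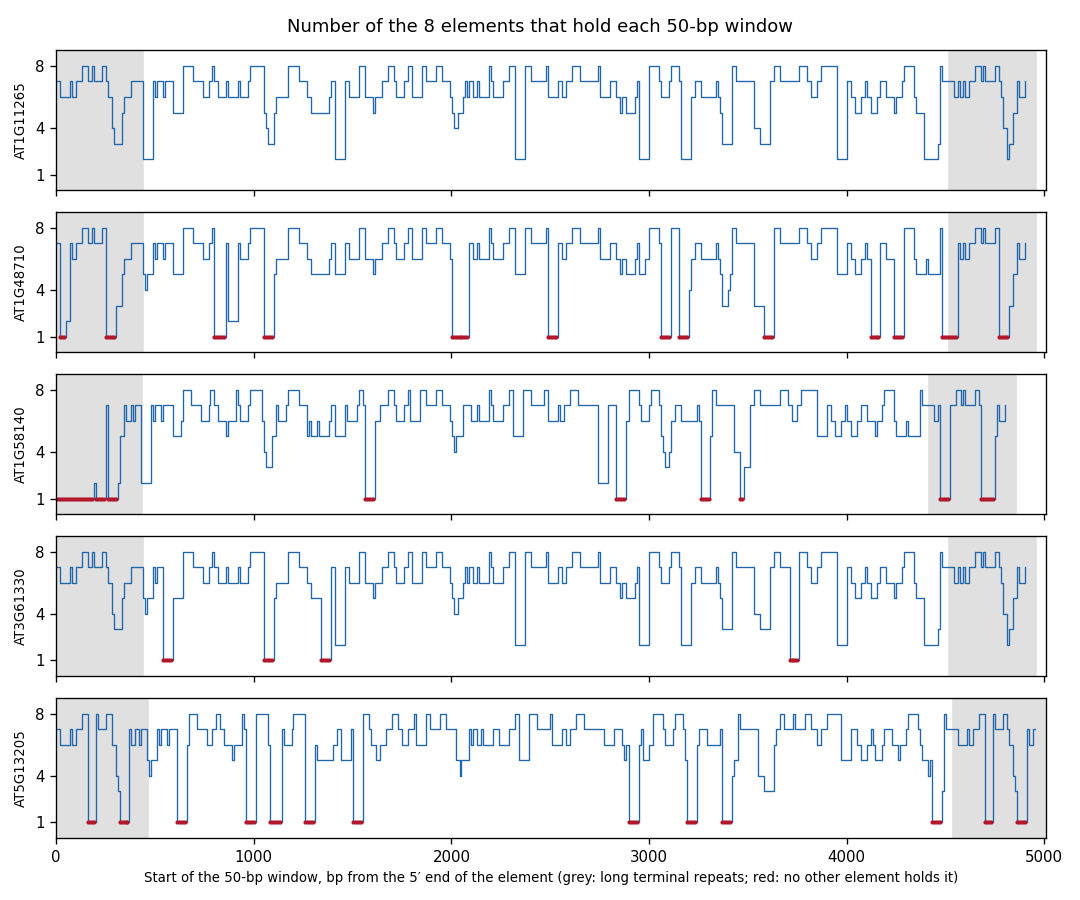
Number of the 8 elements (y axis, 1 to 8) that hold the 50-bp window starting at each distance from the 5′ end of the element (x axis, bp), for each of the 5 copies. Grey bands are the LTRs and red points are windows held by no other element, of which *AT1G11265* has 0 and *AT3G61330* has 4 runs.

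At the other end of the scale, 863 windows of *AT1G11265*, *AT1G48710*, *AT3G61330* and *AT5G13205* were held by all 8 elements, which was 17.4% to 17.6% of each. In *AT1G58140* it was 799 (16.6%). Windows held by 5 or more elements made up 80.7% in *AT1G48710*, 82.4% in *AT1G58140*, 83.9% in *AT5G13205*, 84.2% in *AT3G61330* and 86.6% in *AT1G11265*. With windows of 35 bp, the length of the shorter read, those held by all 8 rose to between 29.2% in *AT1G58140* and 30.4% in *AT1G11265* and *AT3G61330*. The shared stretches were also not limited to the 8 elements, since 1372 windows of *AT1G11265* had an exact match elsewhere on the chromosomes, as did 1124 of *AT1G58140*.

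**Figure D2:**
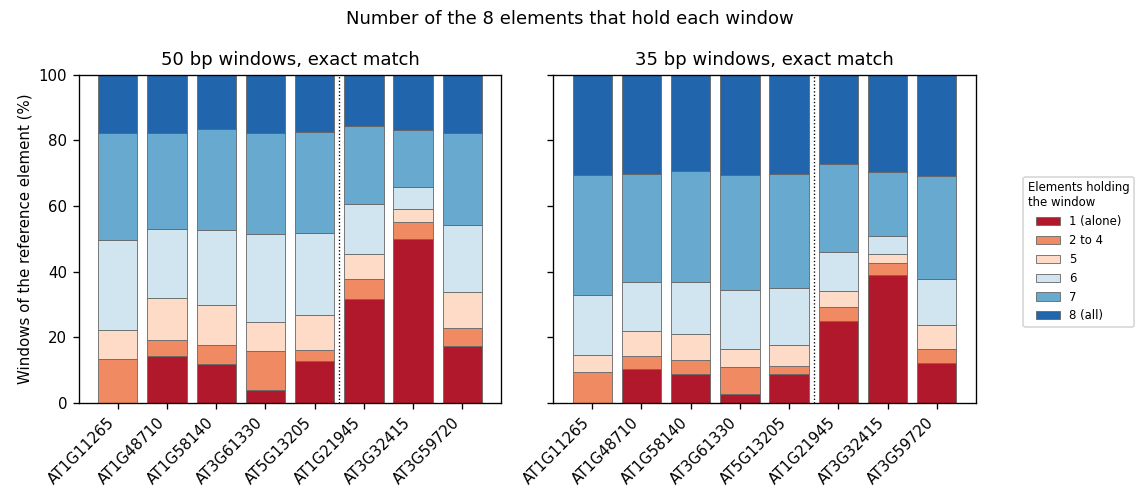
Share of the windows of each reference element (y axis, %) by the number of the 8 elements that hold the window exactly, for 50-bp (left) and 35-bp windows (right). The 5 chosen copies stand left of the dotted line, and the share held by 1 element only (red) runs from 0% in *AT1G11265* to 14.4% in *AT1G48710* among them at 50 bp, against 50.0% in *AT3G32415*.

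In the tracks, no line named *AT1G11265* or *AT1G58140* alone in either library. In library 1, 5 lines named *AT1G48710* alone, 1 line named *AT3G61330* alone and 1 line named *AT5G13205* alone, and in library 2 no line named any of the 5 alone. The boundary of the choice is narrow, since *AT3G59720*, which was left out, was named alone in 2 lines of library 1 and 6 of library 2. Of the 5 lines of *AT1G48710*, 4 lay in 1 dense place on chromosome 3, so that outside it the counts of library 1 were 1 for *AT1G48710* and 2 for *AT3G59720*.

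The lines had long name lists. The median was 7 names in both libraries, and lists of 5 or more names made up 91.4% (library 1) and 97.0% (library 2). All 8 copies were named in 33 lines of library 1 (31.4%) and 100 lines of library 2 (27.6%). All 5 copies, with or without others, were named in 68 lines (64.8%) and 168 lines (46.4%), respectively.

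In library 1, *AT1G48710* was named in 96 lines, *AT1G58140* in 94, *AT1G11265* in 85, *AT3G61330* in 83 and *AT5G13205* in 79. In library 2 the order was different, with *AT1G48710* in 349 lines, *AT5G13205* in 347, *AT1G58140* in 259, *AT1G11265* in 254 and *AT3G61330* in 193. *AT5G13205* was thus the least named of the 5 in library 1 and close to the most named in library 2.

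**Figure D3:**
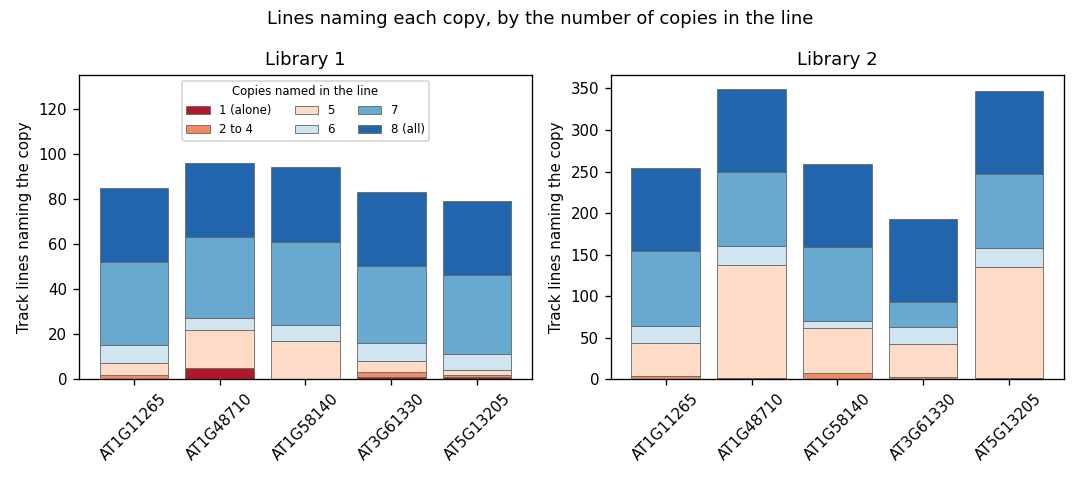
Number of track lines naming each of the 5 copies (y axis) in library 1 (left) and library 2 (right), coloured by how many copies the line names. Lines with 5 or more names fill almost every bar, and lines naming a copy alone appear only in library 1, with 5 for *AT1G48710*.

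These differences between the copies lay in a small number of dense places. Neighbouring lines of a library, up to 500 bp apart, were joined into loci, and 1 locus of library 1 and 6 loci of library 2 with a line of the 5 copies spanned more than 1000 bp. These loci, called clusters here, held 26.7% of those lines in library 1 (28 of 105) and 68.2% in library 2 (247 of 362). Outside the clusters, the 5 copies were named almost equally often. There, library 1 had 67 lines for *AT5G13205*, 68 for *AT1G48710*, 70 for *AT1G58140*, 71 for *AT3G61330* and 73 for *AT1G11265*. Library 2 had 105 for *AT3G61330*, 106 for *AT5G13205*, 107 for *AT1G11265* and 108 each for *AT1G48710* and *AT1G58140*.

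Inside the clusters of library 2, *AT1G48710* and *AT5G13205* were each named in 97.6% of the 247 lines. *AT1G58140* was named in 61.1%, *AT1G11265* in 59.5% and *AT3G61330* in 35.6%. In the cluster of library 1 *AT1G48710* was named in all 28 lines, *AT1G58140* in 85.7%, and *AT1G11265*, *AT3G61330* and *AT5G13205* in 42.9% each. The spread between the copies therefore lay in the clusters, and *AT5G13205* stood at opposite ends of it in the 2 libraries.

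**Figure D4:**
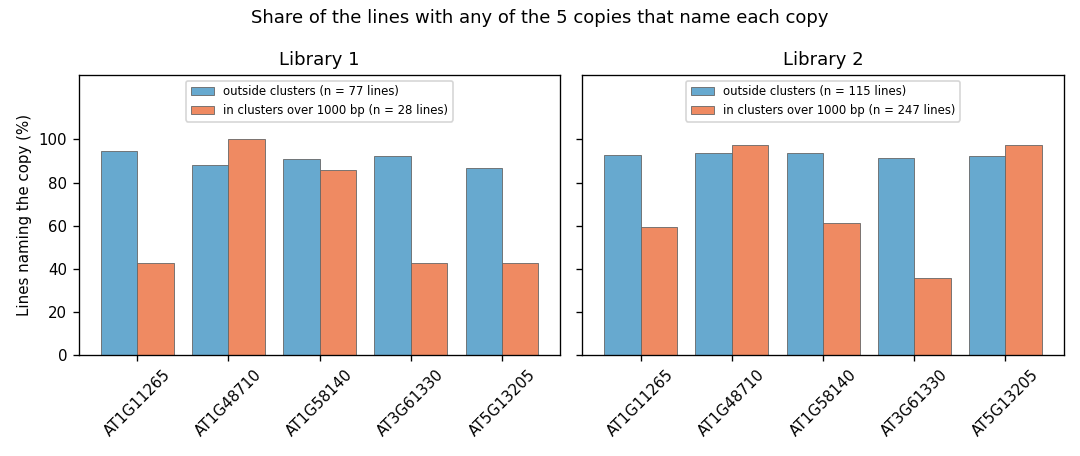
Share of the lines with any of the 5 copies that name each copy (y axis, %), for lines outside the clusters and in clusters over 1000 bp, in library 1 (left) and library 2 (right). Outside the clusters all shares lie between 87.0% and 94.8%, whereas inside they range from 35.6% for *AT3G61330* in library 2 to 100% for *AT1G48710* in library 1.

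The clusters lie on tandem repeats of the reference. The sequence under each cluster was compared with itself at distances of 100 to 600 bp. Its repeat length was taken as the shortest distance that matched about as well as any. This was 178 bp in 6 of the 7 clusters and 502 bp in the cluster with 17 lines. Of 242 spacings between neighbouring lines of a cluster with the same name list and strand, 202 (83.5%) were whole multiples of that repeat length to within 5 bp. By cluster the share ran from 68.1% (49 of 72) in the cluster with 93 lines to 100% in those with 50 lines (32 of 32) and 17 lines (15 of 15). Lines of a cluster, and of clusters with the same repeat length, therefore cannot be read as separate observations. Whether 1 read was listed at several units was not tested.

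A few name lists made up most of the lines in the clusters of library 2. The list without *AT1G11265*, *AT1G58140* and *AT3G61330* occurred in 83 lines, all of them in 5 of the clusters and all on the plus strand. The list that lacks only *AT3G61330* occurred in 60 lines, of which 59 lay in the same 5 clusters and all of those 59 on the minus strand. The list of the 5 copies and no other occurred in 36 lines, 33 of them in these clusters, and all 36 on the plus strand.

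Within the clusters, on chromosomes 2, 4 and 5, each of these lists lay on 1 strand. The cluster with 61 lines on chromosome 2, chr2:3616112-3622621, held 20, 14 and 9 lines of the 3 lists, in that order. The largest cluster, with 93 lines at chr5:11701978-11711019, held 32, 18 and 17. The cluster with 17 lines at chr5:11184650-11188718 held none of the 3 lists, and instead 8 lines with all 8 copies and 9 lines without *AT1G11265*, *AT1G21945* and *AT3G61330*, all on the minus strand.

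The cluster of library 1, chr3:13588963-13592525, held 12 lines with all 8 copies, 12 lines without *AT1G11265*, *AT3G61330* and *AT5G13205*, and 4 lines naming *AT1G48710* alone. The 4 lines were on the plus strand and all 12 lines of the second list were on the minus strand. So 4 of the 5 lines that named *AT1G48710* alone came from this cluster. A further 10 lines there named *AT3G32415* alone.

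**Figure D5:**
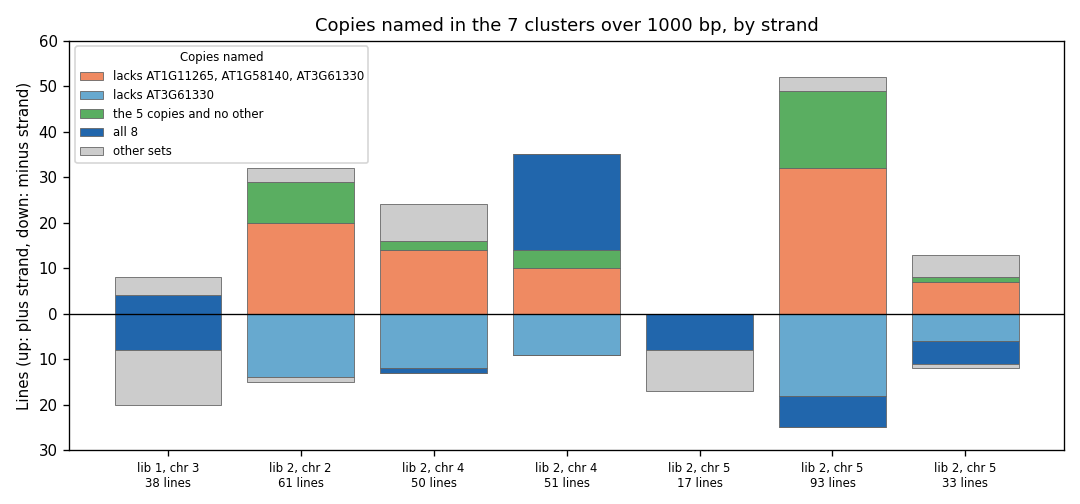
Lines naming any of the 5 copies in the 7 clusters over 1000 bp (x axis, with the library, chromosome and number of all lines), on the plus strand (up) and the minus strand (down), coloured by the copies named. In 5 clusters of library 2 the lines lacking *AT1G11265*, *AT1G58140* and *AT3G61330* lie on the plus strand and the lines lacking only *AT3G61330* on the minus strand.

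The shortest lists with *AT1G58140* had 2 names. It was named with *AT3G59720* and no other copy in 6 lines of library 2, all on the plus strand, in 3 clusters on chromosomes 2 and 5. In library 1 no list with *AT1G58140* had fewer than 5 names. *AT1G11265* was named with 1 other copy in 2 lines of library 2, with *AT3G61330* at chr4:2067872-2067921 and with *AT1G58140* at chr1:26029422-26029471. Its shortest list in library 1 had 3 names.

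Pairs of the 5 copies were compared by the lines naming both as a share of the lines naming either. *AT1G11265* and *AT3G61330*, the pair with 5 substitutions, were named together in 82 of 86 lines of library 1 (95.3%), the highest share of the 10 pairs there. In library 2 it was 192 of 255 lines (75.3%), and outside the clusters 96.3%, again the highest of the 10 pairs. *AT3G61330* was named without *AT1G11265* in only 1 line of each library.

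*AT1G48710* and *AT5G13205* were named together in 72 of 103 lines of library 1 (69.9%), the lowest share there, and in 343 of 353 lines of library 2 (97.2%), the highest. Outside the clusters their shares were 80.0% and 91.1%. The lowest share in library 2 was that of *AT1G48710* and *AT3G61330*, with 188 of 354 lines (53.1%), which was 88.5% outside the clusters. Over the 10 pairs, the shares outside the clusters ran from 80.0% to 94.6% in library 1 and from 86.8% to 96.3% in library 2.

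The name lists were then set beside the reference windows. The 2 libraries had 37 different lists with at least 1 of the 5 copies, 22 in library 1 and 28 in library 2, with 13 in both. Of the 248 lists that 8 names could form with at least 1 of the 5 copies, 74 (29.8%) are held exactly by some 50-bp window of the reference, and 36 of the 37 observed lists were among these 74. They covered all but 1 of the 105 lines of library 1 and all 362 of library 2. The exception was 1 line of library 1 that named *AT1G11265*, *AT3G59720*, *AT3G61330* and *AT5G13205*.

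Windows of 35 bp gave the same 36 lists and lines. When 2 mismatches were allowed in a 50-bp window, 24 of the 37 lists had a window, covering 84 lines of library 1 and 165 of library 2. With 2 mismatches in a 35-bp window it was 18 lists, covering 88 and 162 lines. The list of 83 lines, the list without only *AT3G61330* and the list of the 5 copies and no other were among those that then had none. These comparisons describe the reference and the name lists, and the reads themselves were not examined. Lists made by matching reads to these elements would largely be among those with a window, so the overlap is no test.

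The list of all 8 copies had the most lines in both libraries and also the most distinct windows, 799. For other lists the numbers of lines and windows could lie far apart. The list of 83 lines in library 2 had only 26 distinct windows, in a single run. The list without *AT3G61330* had 90, and the list of the 5 copies and no other had 108. By contrast, the list of *AT1G11265* and *AT3G61330* alone had 326 distinct windows and 1 line. The windows of *AT1G58140* alone had 0 lines. They numbered 568, counted by position and not as distinct sequences.

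At the pseudogene *AT3G42250* on chromosome 3, library 1 had 7 lines, all on the plus strand. The line naming *AT3G61330* alone started at 14403892, and 2 lines naming all copies but *AT3G61330* started at 14403886 and 14403893. The 4 other lines named all 8 copies or all but *AT1G21945*. Library 2 had 10 lines of the 5 copies in the same locus, 6 of them within *AT3G42250*, all on the plus strand and with *AT3G61330* in each list.

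This was 1 of 3 places with lines of the 5 copies in both libraries within 500 bp. The neighbouring pseudogene *AT3G42245* had 2 lines in library 1 and 1 in library 2. A place outside any annotated gene on chromosome 4, at 9320355, had 6 lines in library 1 and 2 in library 2. All lines of the 5 copies at the 3 places were on the plus strand in both libraries.

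The other lines naming a copy alone were single. The line of *AT5G13205* lay at chr1:11593603-11593652 on the minus strand, within the protein-coding gene *AT1G32190*. The remaining line of *AT1G48710* lay at chr1:29740854-29740903 on the minus strand, within the noncoding RNA gene *AT1G09975*. Each was the only line of its locus, and neither place had a line of the 5 copies in library 2.

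Among annotated genes, *AT2G08986* and *AT2G07981*, both protein-coding and both in the cluster of chromosome 2, had the most lines of the 5 copies in library 2, with 33 and 12. Beyond the clusters and the places in both libraries, no gene had more than 2 lines. The genes with 2 lines in library 2 included *LPR1*, a multicopper oxidase that acts in the root response to low phosphate, the methylesterase gene *MES15* and the beta-glucosidase gene *BGLU17*. In library 1, genes other than the pseudogenes *AT3G42250* and *AT3G42245* had 1 line each, such as *AHA10*, a proton pump of the seed coat.

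By chromosome, the lines of the 5 copies outside the clusters were spread over all 5. Chromosomes 1 to 5 had 17, 9, 22, 13 and 16 lines in library 1, and 25, 20, 30, 21 and 19 in library 2. With the clusters, chromosome 3 had 50 lines in library 1 (47.6%), whereas chromosomes 5 and 4 had 138 (38.1%) and 102 (28.2%) in library 2. No line naming 1 of the 5 copies lay within any of the 5 elements. The nearest such line to an element was 664 bp from *AT1G11265* in library 2, at chr1:3786384-3786433 within *AT1G11270*, and it named all 8 copies. The next nearest was 122084 bp from *AT3G61330*, also in library 2.

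On the plus strand lay 50 lines of library 1 (47.6%) and 231 of library 2 (63.8%). Outside the clusters the shares were 54.5% and 65.2%. To ask whether strand or position set these lines apart from the others, loci naming at least 1 of the 5 copies were compared with loci naming none, since lines of a locus are not independent. In library 1, 29 of 64 loci with a copy were on the plus strand (45.3%) against 10 of 27 without (37.0%), and in library 2 it was 60 of 98 (61.2%) against 33 of 58 (56.9%). The differences were 8.28 and 4.33 percentage points, neither past the threshold (two-sided Fisher's exact test, p = 0.497 and p = 0.616, both adjusted p = 0.634 over 4 tests). Loci with lines on both strands, 1 in library 1 and 7 in library 2, all with a copy, were left out. Loci on copies of the same repeat may not be independent of each other either, and the tests do not allow for this. In library 1, for example, loci at chr2:3742-4121 and chr3:14197713-14198092 each spanned 380 bp and held 2 lines.

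The midpoint lay in an annotated gene for 43 of 65 loci with 1 of the 5 copies in library 1 (66.2%) and for 16 of 27 without (59.3%). In library 2 it was 73 of 105 (69.5%) against 43 of 58 (74.1%). There, clusters with the same repeat length entered the test as separate loci, although they cannot be read as separate observations. Neither difference passed the threshold, and they had opposite signs (two-sided Fisher's exact test, p = 0.634 and p = 0.591, both adjusted p = 0.634). With merging within 100 bp the difference in library 2 went from -4.61 to -16.5 percentage points (two-sided Fisher's exact test, p = 0.0203, adjusted p = 0.0812).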

How the data were processed

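Genomic DNA of *nrpd1-3* seedlings was sequenced from both ends of each fragment, with reads of 50 and 35 bp, on a SOLiD 4 system. For 2 libraries the authors deposited tracks with the place, strand and named copies of each line and a score. Within a library the score took a single value for each number of lines per locus, and it was not used. How it was computed is not given in the sources used here. The submitters' processing notes list Bowtie 0.12.8 and TAIR9, with no role given. Places were read against the RefSeq TAIR10.1 assembly, whose nuclear sequence is not known to differ, and all lines end within its chromosome lengths.

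Lines of a library within 500 bp were merged into loci. The LTR of *AT1G11265* was found by aligning that copy, with 3000 bp on both sides, to itself (BLAST+ 2.17.0, E-value limit 1e-05). This LTR was then aligned to every annotated copy with the same flanks. The nearest hits of at least 400 bp on each side of the middle set the ends of the element. *AT1G58140* was aligned to *AT1G11265* with MAFFT 7.526. The repeat length of a cluster was the shortest distance at which its sequence matched itself about as well as at any. Windows were compared on the strand of the element, and matches elsewhere in the genome on both strands. Fisher's exact tests were adjusted by the Benjamini-Hochberg method over 4 tests, at 0.05. Lines of a place are not independent and the depth is unknown, so no interval was given for shares of lines. The window search was tested on simulated data. Alternatives were distinct placements or loci in place of lines, lines outside clusters or outside loci of 3 or more lines, merging within 100 bp, within 2000 bp or not at all, loci of 1 line, windows of 35 bp, 2 mismatches, and the annotated gene only.

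The copies, lists and settings were chosen with earlier results of these data known. Genes named are the 8 copies, genes holding a line that names 1 of the 5 alone or a line at a place found in both libraries, and at most 5 others with the most lines in each library. Python 3.11.15, pandas 2.3.3, scipy 1.17.1, statsmodels 0.14.6, pysam 0.24.0 and matplotlib 3.10.9 were used.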

Additional observations from a re-analysis of the deposited data

How the results depend on the processing

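Counting loci in place of lines gave 65 loci in library 1 and 105 in library 2 with at least 1 of the 5 copies, against 105 and 362 lines. Without loci of 3 or more lines 64 and 103 lines were left, and without the clusters over 1000 bp library 2 had 115. The share of lines naming all 8 copies rose in library 2 from 27.6% to 50.4% without the clusters and to 51.5% without loci of 3 or more lines. The lines of library 1 naming 1 of the 5 copies alone fell from 7 to 3 without the cluster and to 2 without loci of 3 or more lines. Distinct placements in place of lines moved none of these values by more than 1.5 times.

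Without merging, where every line counts as a locus, all 4 tests passed the threshold (two-sided Fisher's exact tests). The difference in plus strand was 42.9 percentage points in library 1 (Fisher's exact test, adjusted p = 3.47e-29) and 57.0 in library 2 (adjusted p = 7.76e-108). The difference in genes was -49.7 percentage points (Fisher's exact test, adjusted p = 8.75e-41) and -59.2 (adjusted p = 6.88e-121). By construction these values weight each place by its lines. Most lines without any of the 5 copies, 754 of 791 and 1065 of 1182, lay at loci of 3 or more lines that all named *AT1G21945* alone. With merging within 100 or 2000 bp, or loci of 1 line, no test passed the threshold, although the sign of the difference in genes turned in library 1 with 100 bp (-1.83 percentage points) and in library 2 with loci of 1 line (0.829).

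With 2 mismatches the windows of 1 copy alone fell to 8 for *AT1G48710*, 107 for *AT1G58140*, 136 for *AT5G13205* and 0 for *AT3G61330*, and *AT1G11265* had 0 under every setting run. Within the annotated gene *AT1G58140* had 169. Of the other values, for single copies, pairs and windows, 65 stayed within 1.5 times and 40 did not, most of them counts of library 2. No paired analysis was possible because each library is a single sample of 1 group. The unknown depth limits every count, and a name list absent from a library cannot be told from one not sampled.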
